A study of Danio rerio with 6 samples.

Results

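Extracellular matrix and integrin genes were followed across 6 single-colour arrays of zebrafish embryos and of sorted vascular reporter cells. A probe was taken as a member when its description named a collagen type, procollagen, laminin, fibronectin, integrin, nidogen, thrombospondin, matrix metalloproteinase or tissue inhibitor of metalloproteinase. A probe was also taken when its gene symbol began with col and a number, lama, lamb, lamc, itga, itgb, fn1, mmp or timp. The rule used no measured value and found 57 of 14067 zebrafish probes. These probes stand for 26 named genes and 3 probes without a symbol, which makes 29 genes and unnamed probes. Of the 57 probes, 17 match the words but do not encode matrix or integrin proteins: 14 belong to rpsa (named there as a laminin receptor, a ribosomal protein), 2 to eif6 (an integrin beta 4 binding protein by name, a translation initiation factor) and 1 to chmp1a (a procollagen protease by an older name, an endosomal sorting protein). The other 40 probes stand for 26 genes and unnamed probes, called matrix and integrin members below. They include procollagen-modifying enzymes (p4ha1b, p4ha2) and integrin-associated proteins (cib2, ilk, mibp, mibp2). Of these, mibp and mibp2 are in the rule by an integrin-binding name, as eif6 is, but were kept in the counts.

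The sorted groups were GFP-positive cells of Tg(Fli1:EGFP) embryos at 18, 24 and 28 hours post fertilization (hpf) and GFP-positive cells of Tg(Flk:GRCFP) embryos, titled 18 hpf. The references were total RNA of whole embryos at 24 and 18 hpf. Each condition was measured on 1 array, so no condition has a replicate and no value below carries a replicate error. The description of the Flk array gives 24 hpf where its title and the series design give 18 hpf. The stated source of all 6 samples is whole larvae, and the whole embryo samples were not labelled with a strain. The RNA of every sample went through 2 rounds of amplification before Cy3 labelling. The Fli1 promoter is known to drive GFP in endothelium, in blood precursors and in neural crest cells of the pharyngeal arches, and the Flk promoter drives it mainly in endothelium and its precursors.

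The extracellular matrix is a mesh of secreted proteins to which cells attach. Fibrillar collagens give it tensile strength, laminins and nidogens form the basement membrane under endothelium and epithelium, and fibronectin guides migrating cells of the early embryo. Integrins are pairs of alpha and beta subunits that bind these proteins outside the cell and the cytoskeleton inside it, while metalloproteinases cut the matrix and their tissue inhibitors restrain them. New vessels are laid down and remodelled through all of these.

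Values are log2 of the background-corrected, quantile-normalised signal of a probe, and a difference of 1 is a fold of 2. A probe was above background on an array when its signal over the local background exceeded the 95th percentile of 173 Arabidopsis control spots there. Between arrays of a pair, the control spots themselves differed with an SD of 0.29 to 0.42 on the log2 scale. This spread was taken after background correction but before quantile normalisation, so it is not on the scale of the differences below. It comes from the spots that set the background limit and does not measure the error of bright probes. No other error is available for a pair. A difference between 2 arrays is called when it is at least 2-fold and the brighter array is above background. Where the dimmer array is not above background the fold is given as at least the value against the lowest signal that is. This bound can be below 2 for a called difference, and the call then rests on a dimmer value that was not above background. In whole tissue and in pools of sorted cells, fewer cells of a type and less RNA per cell cannot be told apart.

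The arrays differed in how much they detected: 24.7%, 32.5% and 32.9% of all probes were above background in Fli cells at 18, 24 and 28 hpf and 42.6% in Flk cells, against 39.4% and 37.5% in whole embryos at 24 and 18 hpf. Of the 5 endothelial markers on the arrays, kdrl was higher in all 4 sorted arrays, between 8.76 and 9.28, than in whole embryos at 24 and 18 hpf, 8.08 and 8.13, with an adjusted p of 0.150 by limma. The markers tek, tal1 and fli1 were also higher in all 4, but fli1 was above background on 1 array only. By contrast lmo2 read 8.28 in Fli cells at 28 hpf, below both whole embryos, 8.36 and 8.84 at 24 and 18 hpf. None of the 5 passed limma. The summed log2 level of 8 epidermal markers was 81.7 to 84.5 on the sorted arrays, against 104.0 and 97.4 in whole embryos at 24 and 18 hpf, and 4 of them (krt5, krt92, ppl, anxa1a) fell by limma. The epidermal marker krt91 went the other way. It read 10.18 to 11.09 on the sorted arrays, against 9.44 and 9.66 in whole embryos at 24 and 18 hpf (limma adjusted p = 0.198). The sum of 5 erythroid markers was 51.8 to 63.7 on the sorted arrays, against 52.9 and 41.7 in whole embryos. The part of these other cell types in the differences of matrix genes was not tested.

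Among the 40 matrix and integrin probes, 6, 10 and 9 were above background in Fli cells at 18, 24 and 28 hpf and 18 in Flk cells, against 16 and 11 in whole embryos at 24 and 18 hpf. As over all probes, the fewest passed in Fli cells at 18 hpf and the most in Flk cells. By gene, 20 of 29 members were above background on at least 1 array, which is 69.0% against 56.4% of all 10663 genes and unnamed probes. These sets are unlike: 26 of the 29 members are named genes and 10 have more than 1 probe. Over the arrays, 5692 of 14067 probes were unnamed and each counted singly. The 29 include rpsa, eif6 and chmp1a, all 3 above background on all 6 arrays. Of the 26 matrix and integrin members alone, 17 were above background somewhere, which is 65.4%. Probe by probe, 22 of the 40 matrix and integrin probes were above background somewhere, close to the 54.3% of all probes. On all 6 arrays 4 of the 26 members, mibp2 among them, were above background, which is 15.4% against 18.8% of all genes and unnamed probes. The 9 members never above background were col9a2, p4ha1b, p4ha2, fn1a, itga5, itgb4, cib2, ilk and mmp14a, and no difference was detectable for them at the sensitivity of these arrays.

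**Figure D1:**
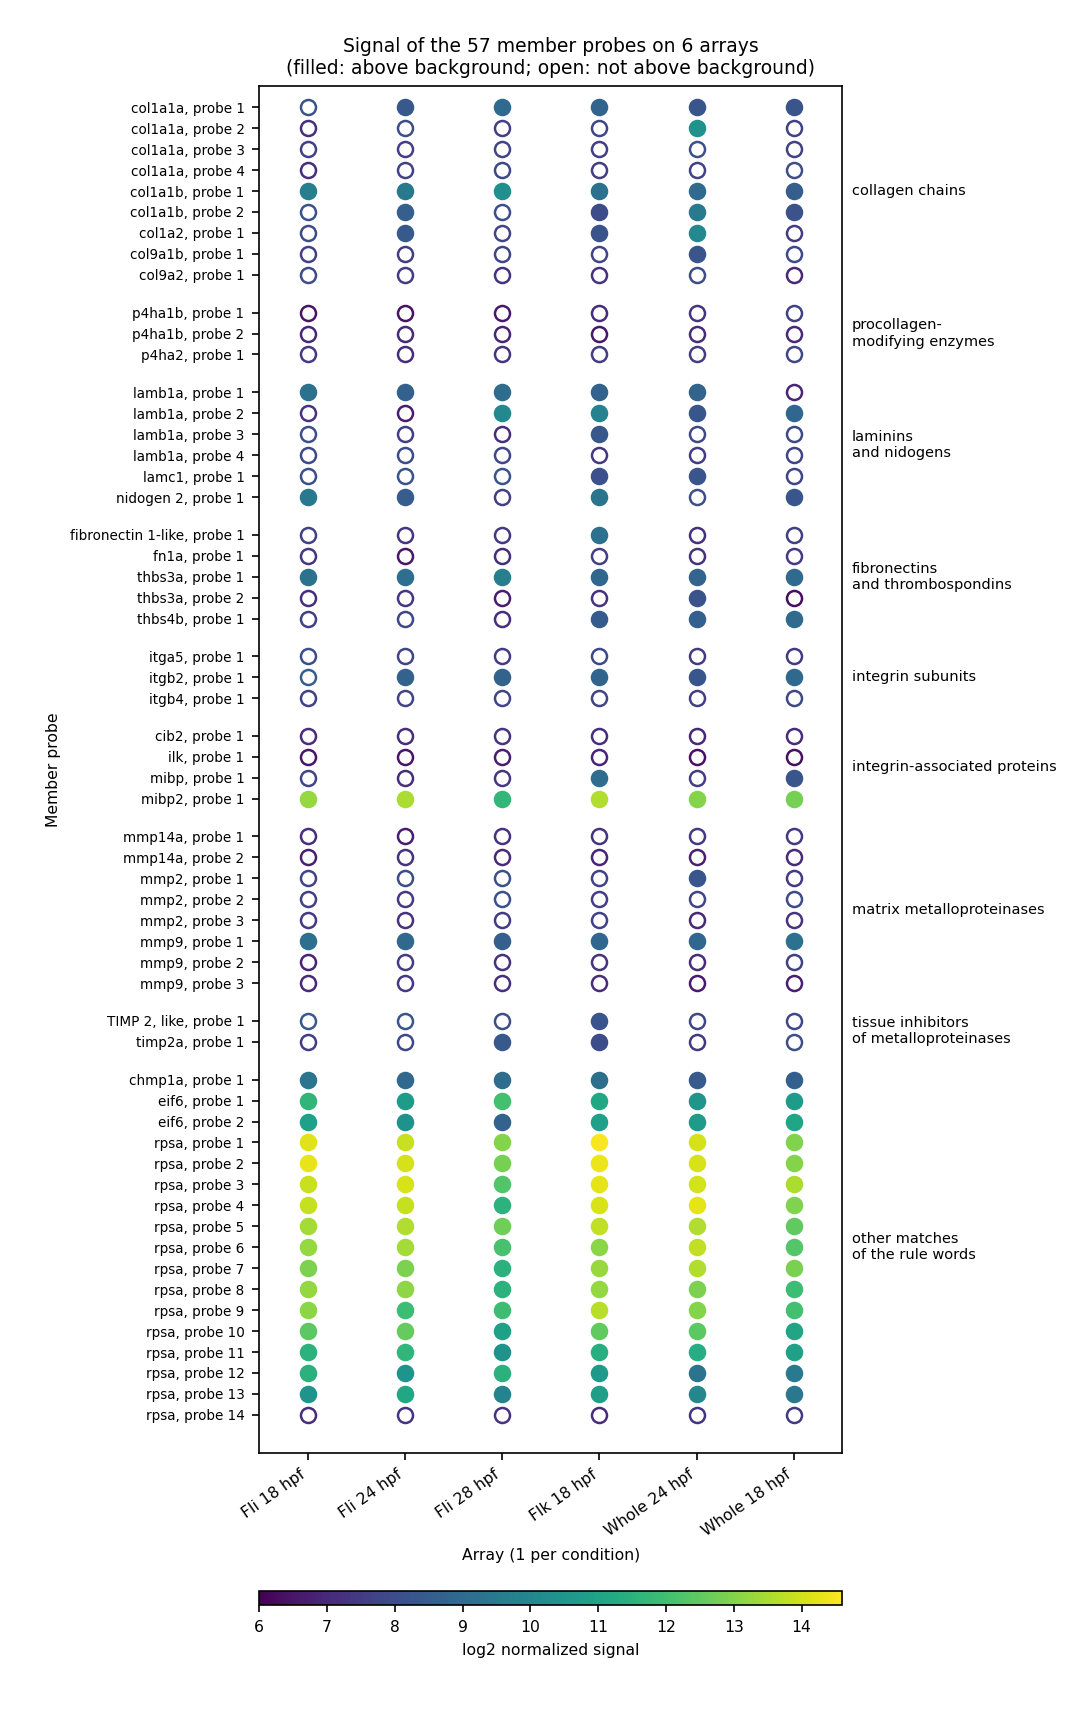
Each row is 1 member probe, grouped by role, and each column 1 array, with colour for the log2 normalised signal; filled circles are above background and open ones are not. Flk cells have the most filled circles among the 40 matrix and integrin probes, 18, and Fli cells at 18 hpf the fewest, 6.

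Across the 4 sorted arrays against the 2 whole embryo arrays, none of the 20 members above background somewhere passed limma at an adjusted p of 0.05, where 0.782% of all 6013 genes and unnamed probes tested passed (3 rose, 0.0499%, and 44 fell, 0.732%). At an unadjusted p of 0.05, 2 of 20 members passed, against 19.6% of all tested. The median estimate of the members was 0.26 on the log2 scale, against 0.09 for all tested, and 0.14 for the 17 matrix and integrin members. The spread within the sorted arrays mixes 3 stages and 2 reporter lines, so its SE includes differences between stages and lines.

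Against whole embryos of the same stage, the members stood as follows. In Fli cells at 18 hpf 4 of 20 members were called higher (col1a1b, lamb1a, the nidogen 2 probe and rpsa), against 9.88% of all tested. There 1 was called lower (thbs4b, with a bound of 1.30-fold), against 13.0%. Under either of the other scalings lamb1a was the 1 member higher and 2 were lower (thbs4b and mibp2). No share of all tested is given for those scalings. Under them the log2 difference of rpsa was -0.73 and -0.85 in place of 1.21, short of a 2-fold call. The lamb1a call rests on the choice of probe. By probe 1 the whole embryo was below background, and by probe 2 the difference in this pair was -1.49, and -1.36 and -1.65 under the other scalings. In Fli cells at 24 hpf none was higher (4.39% of all tested) and 1 was lower (col1a2, 7.75% of all tested). Flk cells against whole embryos at 18 hpf had 4 higher (lamb1a, the fibronectin 1-like probe, the nidogen 2 probe and rpsa; 6.89% of all tested) and none lower (6.70%). The fibronectin 1-like probe is among the 20 only through its Flk value, so its call adds no support. The Fli and Flk comparisons at 18 hpf share the same whole embryo array, so lamb1a, nidogen 2 and rpsa in both are not independent.

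**Figure D2:**
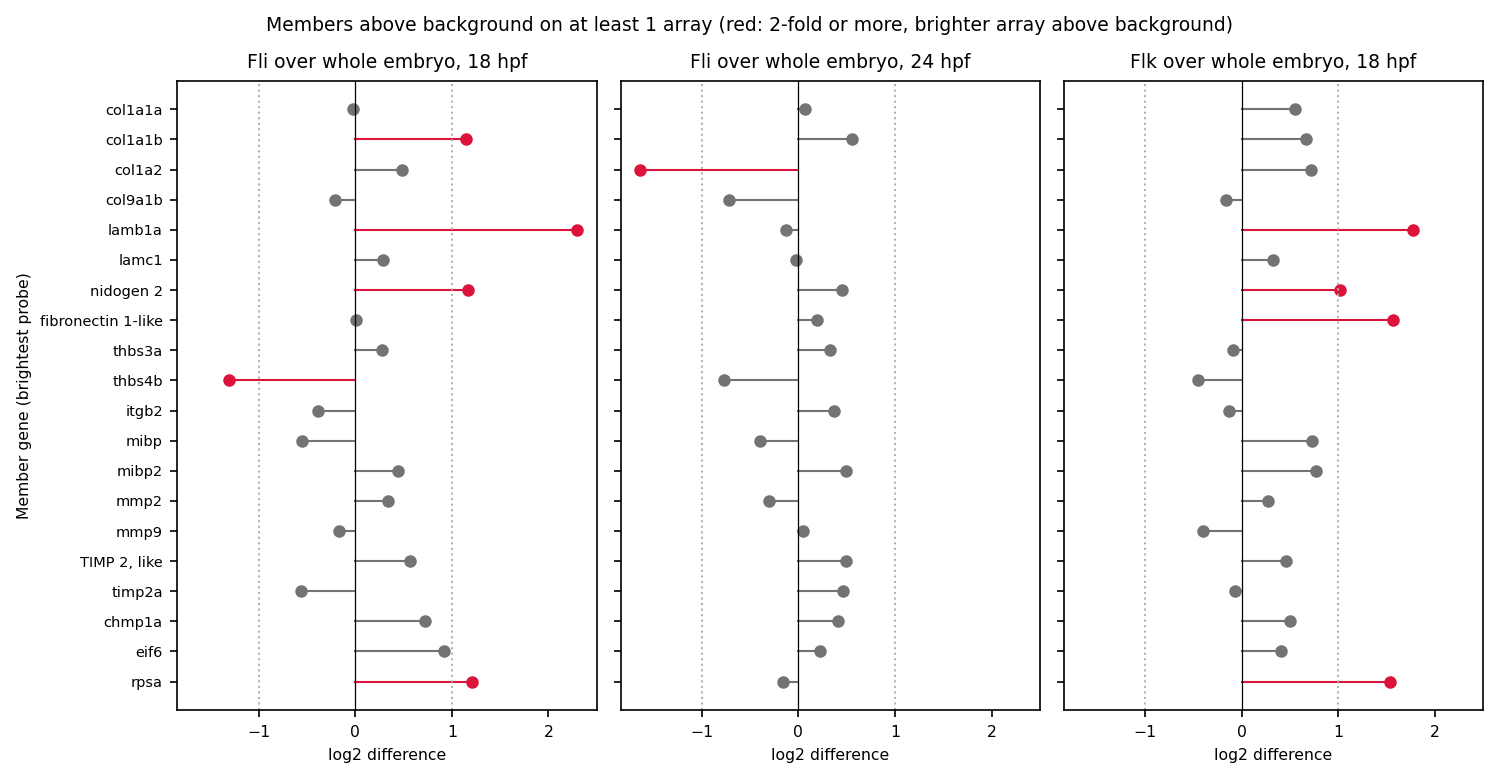
The log2 difference between sorted cells and whole embryos of the same stage is drawn for the 20 members above background on at least 1 array, each read by the brightest of its probes, with dotted lines at a fold of 2. Called differences are red: 5 in Fli cells at 18 hpf, 1 in Fli cells at 24 hpf and 4 in Flk cells; col1a2 at 24 hpf lies farthest to the left.

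Collagen chains came on 9 probes for 5 genes. Type I collagen, the main fibril of skin, tendon and bone, is built from the alpha 1 chain (col1a1a and col1a1b in zebrafish) and the alpha 2 chain (col1a2). The probe of col1a2 had a log2 signal of 7.98, 8.41 and 7.73 in Fli cells at 18, 24 and 28 hpf and 8.21 in Flk cells, against 10.05 and 7.49 in whole embryos at 24 and 18 hpf. The whole embryo at 24 hpf stood above the 5 other arrays. There col1a2 was at least 3.84-fold higher than in the whole embryo at 18 hpf, and in Fli cells at 24 hpf it was 3.12-fold lower than in the whole embryo of that stage. The sorted-minus-whole difference of col1a2 was -0.69, and it was 0.59 when the 24 hpf whole embryo was left out.

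One probe of each alpha 1 gene also peaked in the whole embryo at 24 hpf. Probe 2 of col1a1a read 7.15, 8.08 and 7.57 in Fli cells at 18, 24 and 28 hpf and 7.82 in Flk cells, against 10.39 and 7.67 in whole embryos at 24 and 18 hpf, and it was above background in the whole embryo at 24 hpf and on no other array. This probe counts as detected through that array alone, so its peak there adds no support. It was at least 4.37-fold lower in Fli cells than in the whole embryo at 24 hpf, and at least 4.86-fold higher in the whole embryo at 24 hpf than at 18 hpf. Probe 2 of col1a1b read 8.22, 8.56 and 8.04 in Fli cells at 18, 24 and 28 hpf and 7.99 in Flk cells, against 9.51 and 8.15 in whole embryos at 24 and 18 hpf. It was 2.56-fold higher in the whole embryo at 24 hpf than at 18 hpf, and in Fli cells at 24 hpf its log2 difference from the whole embryo was -0.95, short of a fold of 2. These 3 probes carry source identifiers of the same older kind in the deposited table, and they were set together after their values were seen. Their differences between whole embryos kept their sign and were larger under 75th percentile scaling (3.34, 1.68 and 3.11 for col1a1a, col1a1b and col1a2) and with the authors' scaled values (3.52, 1.97 and 3.35).

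Probe 1 of each alpha 1 gene had another profile. Probe 1 of col1a1b read 9.67, 9.49 and 10.25 in Fli cells at 18, 24 and 28 hpf and 9.19 in Flk cells, against 8.94 and 8.52 in whole embryos at 24 and 18 hpf. All 4 sorted arrays lay above both whole embryo arrays, by 0.92 on the log2 scale (SE 0.34, limma adjusted p = 0.216). At 18 hpf it was 2.22-fold higher in Fli cells than in whole embryos, and 0.87 and 0.74 on the log2 scale under the other scalings, below a fold of 2. Probe 1 of col1a1a read 8.21, 8.37 and 8.94 in Fli cells at 18, 24 and 28 hpf and 8.78 in Flk cells, against 8.31 and 8.23 in whole embryos at 24 and 18 hpf. Its probes 3 and 4 stayed below background on all arrays and give no profile. By probe 1 of each alpha 1 gene Fli cells at 24 hpf were the higher of the pair with the whole embryo of that stage (log2 differences of 0.06 and 0.55), and by probe 2 the lower; for col1a1a the first sign turned with the authors' scaled values, to -0.28.

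**Figure D3:**
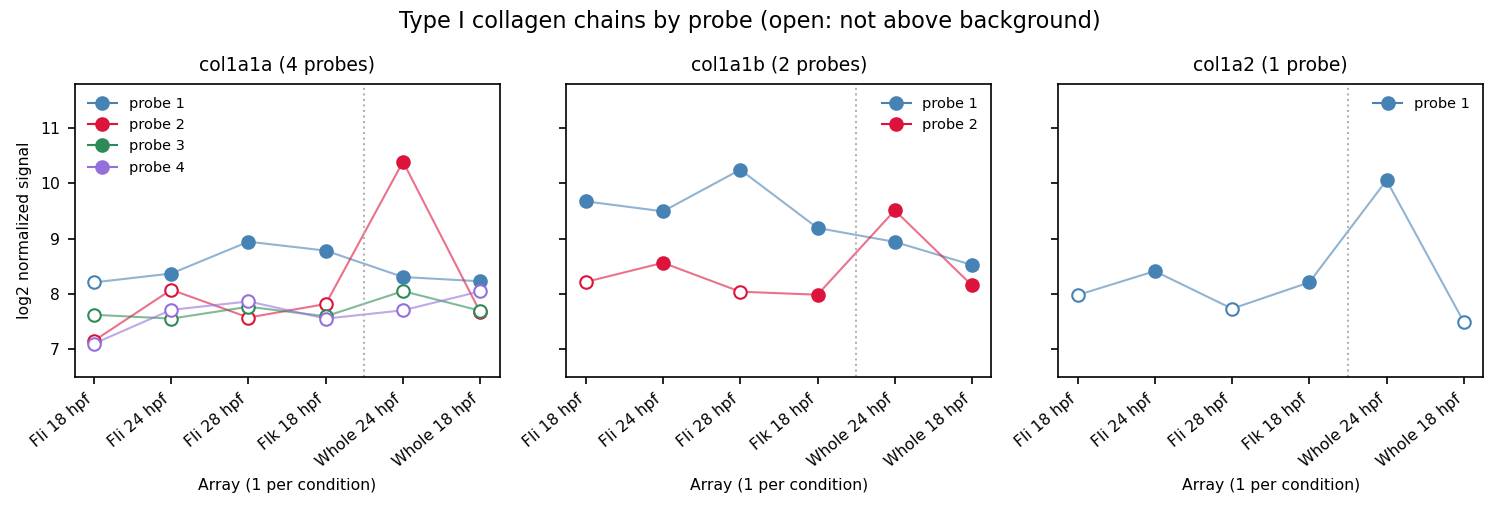
Each panel gives 1 type I collagen gene, with the log2 normalised signal of each probe on the 6 arrays (1 per condition; lines join the values of a probe, open circles are not above background, the dotted line parts sorted from whole embryo arrays). Probe 2 of col1a1a, probe 2 of col1a1b and the col1a2 probe peak in the whole embryo at 24 hpf, at 10.39, 9.51 and 10.05; probe 1 of each alpha 1 gene does not, and probes 3 and 4 of col1a1a are below background throughout.

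Type IX collagen decorates cartilage and notochord fibrils. Its chain col9a1b read 7.68, 7.52 and 7.77 in Fli cells at 18, 24 and 28 hpf and 7.73 in Flk cells, against 8.23 and 7.89 in whole embryos at 24 and 18 hpf, and passed background in the whole embryo at 24 hpf alone. The procollagen prolyl hydroxylase subunits p4ha1b and p4ha2, which modify new collagen chains, were below background on all 3 of their probes. From the matrix proteins outside the rule, serpinh1b, the chaperone that binds procollagen in the secretory pathway, read 9.19, 8.21 and 8.38 in Fli cells at 18, 24 and 28 hpf and 9.43 in Flk cells, against 10.38 and 6.47 in whole embryos at 24 and 18 hpf. It was at least 4.82-fold higher in the whole embryo at 24 hpf than at 18 hpf and at least 4.34-fold lower in Fli cells than in the whole embryo at 24 hpf. At 18 hpf it was at least 2.11-fold higher in Fli cells and at least 2.50-fold higher in Flk cells than in the whole embryo.

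Of 6 skeletal muscle markers, 5 (tnnc2.2, pvalb2, ckma, mylpfa, tnni2a.4) were highest on the same whole embryo array as the type I collagen probes, and acta1b was lowest there, with 11.87 in Fli cells at 28 hpf, against 9.78 in the whole embryo at 24 hpf. The summed log2 level of 6 muscle genes was 50.4 to 57.3 on the sorted arrays, against 63.8 and 51.7 in whole embryos at 24 and 18 hpf. The creatine kinase gene ckma was above background there and on no other array, at least 5.14-fold lower in Fli cells than in the whole embryo at 24 hpf and at least 5.71-fold higher in the whole embryo at 24 hpf than at 18 hpf. The peak on this array was not particular to muscle. The epidermal markers krt4, icn and ppl were also highest in the whole embryo at 24 hpf, at 13.79, 15.43 and 10.91. So were the yolk and liver markers bhmt and fgb, at 13.64 and 10.63. Among the markers of these tissues, krt5, krt91, krt92 and apobb.1 were not highest there. Whether muscle or other tissues carry the difference of the collagen probes that peaked there was not tested.

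Laminins and nidogens gave 6 probes for 3 members, and all 3 members were above background on some array. Laminins are trimers of alpha, beta and gamma chains, and lamb1a encodes a beta 1 chain. Probe 1 of lamb1a read 9.23, 8.60 and 9.04 in Fli cells at 18, 24 and 28 hpf and 8.70 in Flk cells, against 8.73 and 6.93 in whole embryos at 24 and 18 hpf. The whole embryo at 18 hpf was low and below background, and the 5 other arrays ranged over 8.60 to 9.23. Against that low array lamb1a was at least 2.17-fold higher in Fli cells, at least 1.5-fold higher in Flk cells and at least 1.54-fold higher in the whole embryo at 24 hpf. Against the whole embryo at 24 hpf, the Flk array differed by -0.03 and the Fli array of 24 hpf by -0.13 on the log2 scale.

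Probe 2 of lamb1a went another way, with 7.30, 6.70 and 10.06 in Fli cells at 18, 24 and 28 hpf and 9.83 in Flk cells, against 8.32 and 8.79 in whole embryos at 24 and 18 hpf. It was at least 3.46-fold higher in Fli cells at 28 hpf than at 24 hpf and at least 2.42-fold higher in Flk than in Fli cells at 18 hpf. Fli cells were at least 1.18-fold lower than whole embryos at 18 hpf by this probe, where probe 1 has them higher. Probe 3 was above background in Flk cells alone, at 8.34, and probe 4 nowhere. Flk cells were higher than the whole embryo at 18 hpf by all 3 detected probes: at least 1.5-fold by probe 1, 2.05-fold by probe 2 and at least 1.17-fold by probe 3. Probe 3 counts as detected through the Flk array alone, so its direction adds no support. The probes also share the same pair of arrays, and by probe 1 the whole embryo was below background.

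The gamma 1 chain lamc1, the usual partner of beta 1, read 8.05, 8.20 and 8.22 in Fli cells at 18, 24 and 28 hpf and 8.09 in Flk cells, against 8.23 and 7.77 in whole embryos at 24 and 18 hpf. It differed by less than a fold of 2 in every pair. As it was above background in Flk cells and in the whole embryo at 24 hpf alone, pairs of other arrays hold no measured difference. The nidogen 2 probe, for a protein that links laminin to type IV collagen, read 9.46, 8.49 and 7.59 in Fli cells at 18, 24 and 28 hpf and 9.32 in Flk cells, against 8.05 and 8.30 in whole embryos at 24 and 18 hpf. Both sorted arrays of 18 hpf lay above all others, 2.24-fold (Fli) and 2.03-fold (Flk) higher than the whole embryo at 18 hpf. In Fli cells it was 1.96-fold lower at 24 than at 18 hpf and at least 1.18-fold lower at 28 hpf, where it was below background, than at 24 hpf. The Fli difference at 18 hpf was 0.98 and 0.77 under the other scalings.

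**Figure D4:**
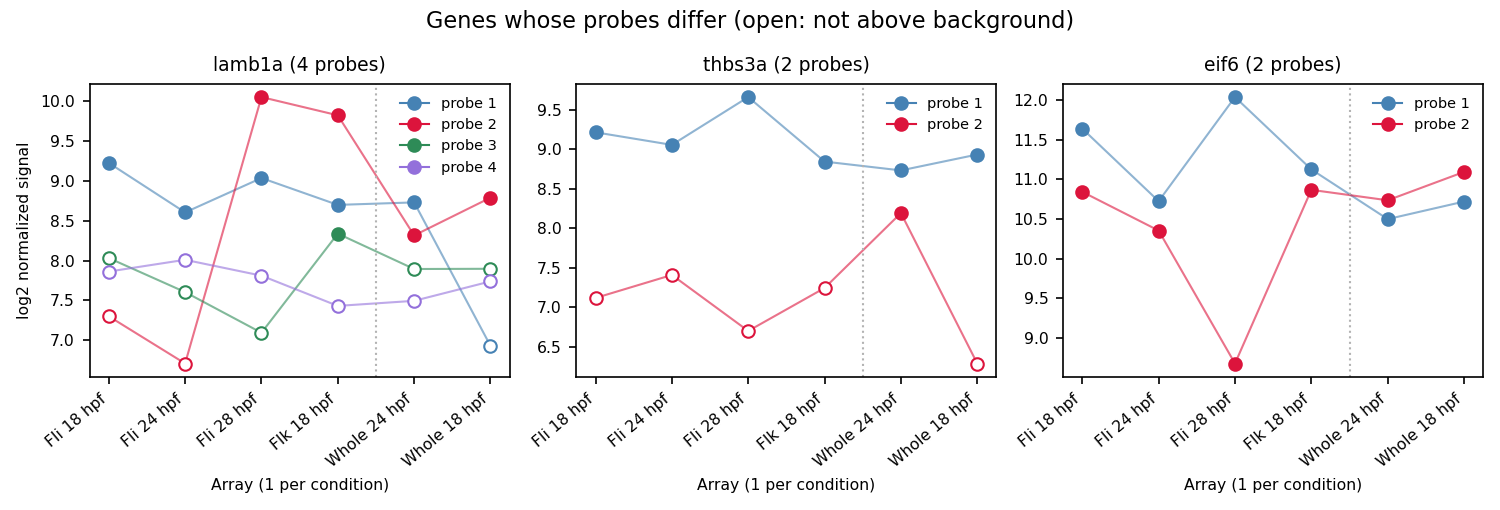
Each panel gives 1 gene whose probes differ, with the log2 normalised signal of each probe on the 6 arrays (1 per condition; lines join the values of a probe, open circles are not above background, the dotted line parts sorted from whole embryo arrays). Probe 2 of lamb1a is at 10.06 and 9.83 in Fli cells at 28 hpf and in Flk cells, while probe 1 is low in the whole embryo at 18 hpf, 6.93; the eif6 probes part in Fli cells at 28 hpf.

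Fibronectins and thrombospondins made 5 probes for 4 members. Fibronectin is the provisional matrix on which heart and vessel precursors move. The probe of fn1a was below background on all arrays. The fibronectin 1-like probe read 7.62, 7.37 and 7.39 in Fli cells at 18, 24 and 28 hpf and 9.18 in Flk cells, against 7.18 and 7.61 in whole embryos at 24 and 18 hpf. It was above background in Flk cells and on no other array, at least 2.09-fold higher than in the whole embryo and at least 1.54-fold higher than in Fli cells at 18 hpf. With 1 Flk array this value has no second measurement.

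Thrombospondins are secreted glycoproteins that bind other matrix proteins and cells. The probe of thbs4b read 7.62, 7.83 and 7.15 in Fli cells at 18, 24 and 28 hpf and 8.48 in Flk cells, against 8.60 and 8.93 in whole embryos at 24 and 18 hpf. Every sorted array lay below both whole embryo arrays, by -0.99 on the log2 scale (SE 0.38, limma adjusted p = 0.220), and the 3 Fli arrays were below background. At 18 hpf it was at least 1.30-fold lower in Fli cells than in whole embryos. The gene is known in vertebrates from tendon and muscle attachments. Probe 1 of thbs3a ranged over 8.85 to 9.66 on the sorted arrays, against 8.73 and 8.94 in whole embryos at 24 and 18 hpf, and no pair reached a fold of 2. Its probe 2 was above background in the whole embryo at 24 hpf alone, at 8.19.

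Integrin subunits were represented by itga5, the alpha chain of the fibronectin receptor, itgb2, the leukocyte beta 2 chain, and itgb4, the beta 4 chain of epithelial hemidesmosomes. Of these, itgb2 alone passed background, on 5 of 6 arrays. It read 8.52, 8.66 and 8.71 in Fli cells at 18, 24 and 28 hpf and 8.77 in Flk cells, against 8.29 and 8.90 in whole embryos at 24 and 18 hpf. The groups overlapped, and the sorted-minus-whole difference was 0.07 on the log2 scale (SE 0.27, limma adjusted p = 0.901). Its sign turned with the authors' scaled values, to -0.13.

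Integrin-associated members were cib2, a calcium- and integrin-binding protein, ilk, the integrin-linked kinase that ties beta subunits to actin, and mibp and mibp2, named for binding the muscle beta 1 integrin. The first pair was below background throughout. The probe of mibp read 7.72, 7.16 and 7.36 in Fli cells at 18, 24 and 28 hpf and 9.00 in Flk cells, against 7.57 and 8.27 in whole embryos at 24 and 18 hpf. It was at least 1.36-fold higher in Flk cells than in Fli cells at 18 hpf. The probe of mibp2 read 13.24, 13.51 and 11.70 in Fli cells at 18, 24 and 28 hpf and 13.56 in Flk cells, against 13.02 and 12.80 in whole embryos at 24 and 18 hpf. In Fli cells at 28 hpf it was 3.52-fold lower than at 24 hpf, and this was the lowest of the 6 arrays. Under 75th percentile scaling its 28 against 24 hpf difference was -2.99, and its Fli against whole embryo difference at 18 hpf turned from 0.44 to -1.35.

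The metalloproteinases mmp2 and mmp9, the gelatinases, and mmp14a, a membrane-bound collagenase, had 8 probes, of which 6 were below background throughout. Probe 1 of mmp2 read 7.75, 8.00 and 8.13 in Fli cells at 18, 24 and 28 hpf and 7.68 in Flk cells, against 8.30 and 7.41 in whole embryos at 24 and 18 hpf. This probe was above background in the whole embryo at 24 hpf alone, at least 1.14-fold higher there than in the whole embryo at 18 hpf. The log2 difference between these 2 arrays was 0.89, and 1.07 and 1.36 under the other scalings. Probe 1 of mmp9, a gene of leukocytes and of remodelling tissue, was above background on all arrays, with 9.08, 8.86 and 8.58 in Fli cells at 18, 24 and 28 hpf and 8.85 in Flk cells, against 8.81 and 9.25 in whole embryos at 24 and 18 hpf. After quantile normalisation no pair reached a fold of 2 for either gene. Under the other scalings the mmp2 difference between whole embryos did, against an 18 hpf value that was not above background.

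Of the tissue inhibitors, timp2a read 7.52, 7.85 and 8.38 in Fli cells at 18, 24 and 28 hpf and 8.01 in Flk cells, against 7.38 and 8.08 in whole embryos at 24 and 18 hpf. The probe described as tissue inhibitor of metalloproteinase 2, like, read 8.36, 8.24 and 8.04 in Fli cells at 18, 24 and 28 hpf and 8.25 in Flk cells, against 7.75 and 7.79 in whole embryos at 24 and 18 hpf. Its sorted arrays lay above both whole embryo arrays, by 0.45 (SE 0.24, limma adjusted p = 0.324), but it was above background in Flk cells alone. The first of these inhibitors, timp2a, showed overlapping groups and was above background in Flk cells and in Fli cells at 28 hpf alone.

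Between arrays of the sorted cells few members were called. In Flk against Fli cells at 18 hpf 2 of 20 members were called higher (mibp and the fibronectin 1-like probe, against 5.50% of all tested) and none lower (3.63%). Both were below background in Fli cells, and their bounds were 1.36-fold and 1.54-fold. The fibronectin 1-like probe is among the 20 only through its Flk value, so its call here adds no support either. Between Fli cells at 24 and 18 hpf none was higher (4.97%) or lower (3.74%). At 28 against 24 hpf 1 was higher (eif6, 8.00%) and 1 lower (mibp2, 9.95%). Whole embryos at 24 against 18 hpf had 3 members higher (col1a2, lamb1a and rpsa; 5.54% of all tested) and none lower (3.99%). For lamb1a the bound there was 1.54-fold. In each of these counts 1 member is 5.0% of the 20.

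Read probe by probe, 38 member probes were above background somewhere, 13 of them of rpsa, and these counts were added after the data were seen. At 18 hpf 10 were at least 2-fold higher in Fli cells than in whole embryos (9.27% of all probes) and 2 lower (13.3%). The same pair at 24 hpf had 2 higher (4.06%) and 4 lower (8.56%). Flk cells against whole embryos had 13 higher (7.14%) and none lower (6.95%). Flk against Fli cells had 3 higher (5.64%) and none lower (3.30%). Between Fli cells at 24 and 18 hpf none was higher (5.33%) and 2 were lower (3.50%), and at 28 against 24 hpf 3 were higher (7.21%) and 11 lower (11.4%). Whole embryos at 24 against 18 hpf had 11 higher (6.51%) and none lower (3.99%). Without rpsa, eif6 and chmp1a, 22 probes remained, of which 3 were higher and 2 lower in Fli cells at 18 hpf, 3 were lower in Fli cells at 24 hpf and 4 were higher in Flk cells, each against whole embryos, and 5 were higher in whole embryos at 24 than at 18 hpf. Members above background in Flk cells alone (the fibronectin 1-like and tissue inhibitor 2-like probes, and probe 3 of lamb1a) were read on the array where 42.6% of all probes passed; the part of array sensitivity was not tested.

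The 17 probes of rpsa, eif6 and chmp1a were in the rule by name. The protein of rpsa is a component of the small ribosomal subunit that was also described as a cell surface laminin receptor. Of its 14 probes 13 were above background on every array, and 1 on none. Probe 1 read 14.19, 13.89 and 13.02 in Fli cells at 18, 24 and 28 hpf and 14.51 in Flk cells, against 14.05 and 12.98 in whole embryos at 24 and 18 hpf. In Flk cells all 13 detected probes were higher than in the whole embryo at 18 hpf (median difference 1.29), 9 of them at least 2-fold, against 7.14% of all probes tested singly; under 75th percentile scaling 9 of 13 were higher (median 0.37). In Fli cells at 18 hpf all 13 were higher than in the whole embryo (median 1.04), 7 of them at least 2-fold (9.27% of all probes), but under 75th percentile scaling 11 of 13 were lower (median -0.73) and with the authors' scaled values 12 of 13 (median -0.85).

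Between 28 and 24 hpf the difference of rpsa in Fli cells had the same sign under each scaling. At 28 hpf 11 of 13 probes were lower than at 24 hpf (median -1.29), 9 of them at least 2-fold, against 11.4% of all probes. Under 75th percentile scaling 12 of 13 were lower (median -2.46), and likewise with the authors' scaled values (median -2.49). At 24 against 18 hpf the counts moved with the scaling: 7 of 13 probes were higher after quantile normalisation (median 0.03), against 12 of 13 under each of the other scalings (medians 1.25 and 1.38). The share of all probes under those scalings is not given, so this count is not read as particular to rpsa. The bright mibp2 probe moved likewise in this pair, from 0.28 to 1.56 and 1.72. At 28 against 24 hpf mibp2 went from -1.81 to -2.99 and -2.93. In whole embryos 12 of 13 rpsa probes were higher at 24 than at 18 hpf by each of the 3 scalings (medians 0.99, 0.79 and 0.83). After quantile normalisation 6 of them were at least 2-fold higher, against 6.51% of all probes. No share of all probes by sign is given for any pair, and none of any kind under the other scalings. Counts of rpsa probes by sign or under those scalings are therefore not read as particular to rpsa. The probes of 1 gene share each sample and are not replicates of a condition. The array signal scale moved with the difference in Fli cells between 28 and 24 hpf and opposite to the one between whole embryos: the intensity over background that 1% of probes exceeded was 3039 in Fli cells at 18 hpf, 10112 at 24 hpf and 3357 at 28 hpf and 9289 in Flk cells, against 20536 and 26835 in whole embryos at 24 and 18 hpf. Its part in the result was not tested.

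**Figure D5:**
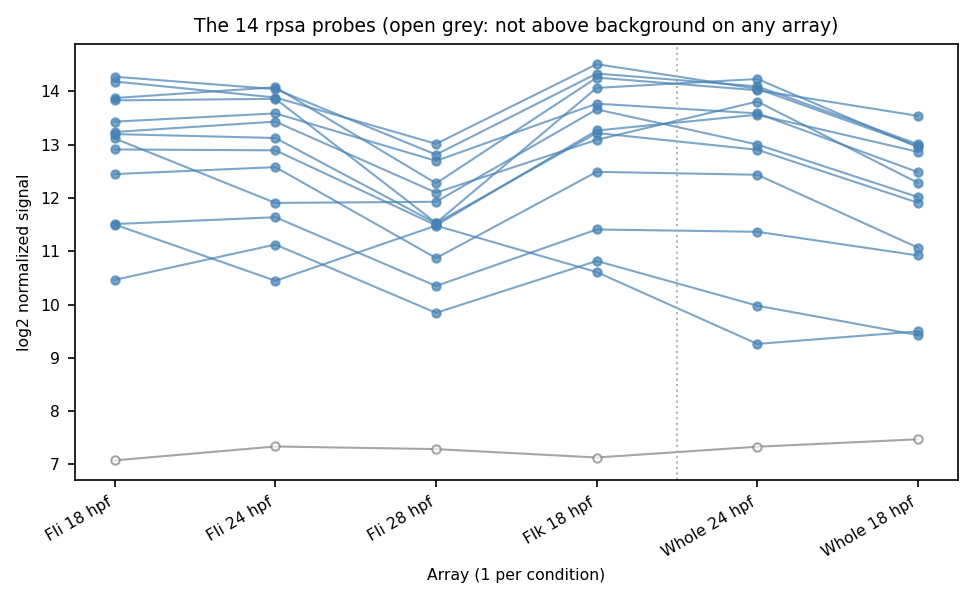
Each line is 1 of the 14 rpsa probes, with its log2 normalised signal on the 6 arrays (1 per condition); the dotted line parts sorted from whole embryo arrays. The 13 detected probes lie higher in Fli cells at 18 hpf and in Flk cells than in the whole embryo at 18 hpf after quantile normalisation (for Fli cells this turns under the other scalings), and 11 of them are lower in Fli cells at 28 than at 24 hpf.

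The 2 probes of eif6 disagreed. Probe 1 read 11.64, 10.73 and 12.04 in Fli cells at 18, 24 and 28 hpf and 11.13 in Flk cells, against 10.50 and 10.72 in whole embryos at 24 and 18 hpf. Probe 2 read 10.84, 10.35 and 8.68 in Fli cells at 18, 24 and 28 hpf and 10.87 in Flk cells, against 10.74 and 11.09 in whole embryos at 24 and 18 hpf. In Fli cells at 28 hpf probe 1 was 2.49-fold higher than at 24 hpf and probe 2 was 3.20-fold lower. The call of eif6 as higher therefore rests on the choice of probe. The probe of chmp1a read 9.34, 8.86 and 9.03 in Fli cells at 18, 24 and 28 hpf and 9.12 in Flk cells, against 8.45 and 8.61 in whole embryos at 24 and 18 hpf, a difference of 0.56 (SE 0.26, limma adjusted p = 0.273).

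Of 47 other matrix proteins, chaperones and cross-linkers listed, 13 were on the arrays outside the members and 7 were above background somewhere; none rose or fell by limma (lowest adjusted p 0.206, median estimate 0.51 against 0.09 for all tested). Besides serpinh1b, sparc, a collagen-binding glycoprotein, read 10.21 to 10.27 in Fli cells and 11.32 in Flk cells, against 10.04 and 9.47 in whole embryos at 24 and 18 hpf. It was 3.60-fold higher in Flk cells than in the whole embryo and 2.07-fold higher than in Fli cells at 18 hpf. The hydroxylase beta subunit p4hb, also a disulphide isomerase, was 2.37-fold higher in Flk cells than in the whole embryo at 18 hpf. The hyaluronan synthase has2 was 3.08-fold higher in Fli cells at 28 than at 24 hpf, with 12.16 and 10.53. In the same pair probe 1 of eif6, with 12.04 and 10.73, had a log2 difference of 1.31, and 0.35 and 0.38 under the other scalings. The proteoglycan dcn was at least 1.76-fold higher in Fli cells at 28 than at 24 hpf, and efemp2a, a fibulin, was 2.10-fold higher in Flk cells than in the whole embryo at 18 hpf. The remaining gene, ccn1, had an estimate of 0.51. Folds of the listed genes outside the members are given after quantile normalisation alone, so their dependence on the scaling is not shown.

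Of 31 adhesion complex genes listed, 12 were on the arrays outside the members and 5 were above background somewhere, and none passed limma (lowest adjusted p 0.179, median estimate -0.20). The actin cross-linker actn4 read 13.49, 12.61 and 14.57 in Fli cells at 18, 24 and 28 hpf and 12.88 in Flk cells, against 11.81 and 11.60 in whole embryos at 24 and 18 hpf. All sorted arrays lay above both whole embryo arrays. The tetraspanin cd81a was at least 2.72-fold lower in Fli cells and 2.41-fold lower in Flk cells than in the whole embryo at 18 hpf. The whole embryo itself was 3.44-fold lower at 24 than at 18 hpf, and at 24 hpf Fli cells differed from it by 0.05 on the log2 scale. The focal adhesion genes tln1 and lims1 and the syndecan sdc2 had estimates of -0.38, 0.60 and -0.20.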

How the data were processed

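The authors deposited scanner tables for 6 Cy3 arrays; per the file headers they hold a linear intensity for each spot and its local background at scan settings of 45, 55 and 65, and a flag score for each spot. The authors' scaled intensity in the deposited value table matched the scanner tables, with column medians of 0.922, 0.856 and 0.922 (Fli cells at 18, 24 and 28 hpf), 0.869 (Flk cells), 0.816 and 0.801 (whole embryos at 24 and 18 hpf); its genes are not centred. The scanner software and genome build are not given in the sources used here, and no coordinates or sequences are printed.

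Here the intensity at setting 55 was corrected with normexp (offset 50) and quantile normalised over 13999 probes (68 flagged ones left out) with limma 3.58.1 in R 4.3.3. Symbols came through RefSeq names (GRCz12tu): 8375 of 14067 probes were named, 7702 by accession and 24 by an older accession. A clone name gave 415, a gene name in the description 18, and a description shared with a named probe 216. Among the 57 member probes, 47 were named by accession and 7 by shared description. A gene is read by the brightest of its probes on average, and probes are numbered in that order. Of genes and unnamed probes, the 6013 that exceeded background somewhere were tested with lmFit and eBayes, 4 sorted against 2 whole embryo arrays (4 residual degrees of freedom); adjustment was by Benjamini-Hochberg at 0.05, and the test was checked on simulated data. Pairs of arrays were compared by fold with no test. The p-values measure the spread between these arrays, which may be partly technical. An exact permutation test of 4 against 2 arrays cannot go below 1 in 15 and was not made.

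The members and lists were chosen with earlier results of these data known. Members were to be named where they passed limma, differed 2-fold from whole embryo the same way in 2 of 3 sorted arrays, had the extreme estimate of their role group, or differed 4-fold in a pair; 16 qualified, and the others are given as well, chosen after their values were seen. Alternatives were the scaling, the background correction, the scan setting, the probe of a gene, the filter on dim probes, stage as a term or block and each array left out. Reading every probe by itself was added after seeing the data.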

Additional observations from a re-analysis of the deposited data

Results flagged for a closer look

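The fibronectin 1-like probe in Flk cells stood apart from the other sorted arrays. Its log2 signal was 9.18 there, against 7.62, 7.37 and 7.39 in Fli cells at 18, 24 and 28 hpf. The gap to the nearest array was 0.863 of the whole range of the 4 sorted arrays, above Dixon's 95% critical value for 4 values. The probe was among the members examined only through its Flk value, so the test cannot decide whether that value stands apart. Of 20 members examined this was the 1 that passed. Chance alone passes about 1 in 20 groups drawn from 1 condition, and these 4 arrays differ in stage and reporter line. The 3 Fli values are below background, so their spread is not a measured one, and the Flk array is the 1 array of another reporter line.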

How the results depend on the processing

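The number of arrays, 1 per condition, limits every value here, and probes near background carry bounds rather than folds. No paired analysis was possible because no condition has a second array and the labels give no replicate numbers to pair by; stage, shared by Fli and whole embryo arrays at 18 and 24 hpf, was used as a block in its place. None of the members passed limma under any of the 17 alternatives. Of 17 calls of members at 2-fold, the same call was made for 11 under 75th percentile scaling, 11 with the authors' scaled values, 16 without background correction, 17 with joined scan settings, 10 with the mean over the probes of a gene and 6 among genes above background on all 6 arrays. The median of all genes moved by more than 0.1 with the authors' scaled values: it was -0.21 for Fli cells against whole embryos at 18 hpf, against 0.02 after quantile normalisation, and 0.18 for Flk against Fli cells, against 0.03.

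Over all genes tested, 47 passed limma, and 92 did under 75th percentile scaling, 103 with the authors' scaled values, 15 among those above background on all 6 arrays, 351 on the 4 stage-matched arrays blocked by stage and 31 with stage in hours and Flk at 24 hpf. Leaving out 1 array gave 8 to 53, with 8 without Fli cells at 18 hpf, 21 without the whole embryo at 24 hpf, 29 without Flk cells and 31 without Fli cells at 24 hpf.

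Signs of the sorted-minus-whole log2 difference turned for these members, none of which passed. Under 75th percentile scaling it was -0.18 for eif6 (0.77 after quantile normalisation), 0.0671 for mibp (-0.11), -1.04 for mibp2 (0.10) and -0.84 for rpsa (0.39). The authors' scaled values gave -0.29 for eif6, -0.13 for itgb2 (0.07), 0.0386 for mibp, -1.12 for mibp2 and -0.90 for rpsa. With joined scan settings mmp2 was -0.0631 (0.0318), and with the mean over probes mmp9 was 0.0745 (-0.19). Leaving out 1 array at a time gave -1.97 (without whole embryo at 18 hpf) to 0.59 (without whole embryo at 24 hpf) for col1a2, -0.24 to 0.37 for itgb2, -0.0916 to 0.37 for lamc1, -0.51 to 0.24 for mibp, -0.0921 to 0.53 for mibp2, -0.41 to 0.48 for mmp2, -0.41 to 0.0315 for mmp9, -0.15 to 0.92 for rpsa and -0.14 to 0.56 for timp2a. With stage as a block itgb2 was -0.00644 and timp2a -0.0480. With stage in hours mibp was 0.00691 and mmp2 -0.0315, and with Flk at 24 hpf 0.0124 and -0.13.

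Counts of members past 2-fold moved as follows. The share of all genes past 2-fold under these alternatives is not given. These counts therefore do not show whether the members moved apart from all genes. In Fli cells against whole embryos at 18 hpf, 4 were higher and 1 lower; both other scalings gave 1 and 2, the mean over probes 1 higher, and the filter on all 6 arrays 2 and 0. In Fli cells against whole embryos at 24 hpf that filter left 0 lower of 1. In Flk cells against whole embryos at 18 hpf it left 1 of 4 higher, and against the whole embryo at 24 hpf 1 was lower, where lamb1a read -0.0314 (1.77 at 18 hpf). Flk over Fli cells gave 4 higher under both other scalings and 0 under the filter (2 in the main count). Fli cells at 24 against 18 hpf gave 2 higher under both other scalings (0). At 28 against 24 hpf both other scalings and the mean over probes gave 0 higher and 2 lower (1 and 1), with eif6 at -0.18 by the mean (1.31). Whole embryos at 24 against 18 hpf gave 1 higher by the mean over probes and under the filter (3), and 1 lower with the authors' scaled values (0). For rpsa in Fli cells against whole embryos at 18 hpf the difference of 1.21 became -0.73 (75th percentile) and -0.85 (authors' scaled values). The filter lowers counts by testing fewer genes; the other causes were not tested.

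Read by every probe singly, 38 probes in place of 20 members, the higher and lower counts were 10 and 2 (Fli cells at 18 hpf against whole embryos), 2 and 4 (24 hpf), 13 higher (Flk cells), 2 lower (Fli at 24 against 18 hpf), 3 and 11 (28 against 24 hpf) and 11 higher (whole embryos at 24 against 18 hpf), with rpsa giving 13 of the probes. The shares of all probes past the same fold stand beside these counts in the results above.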
